A study of Mus musculus with 6 samples.

Results

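The genes examined were those of the respiratory chain and the ATP synthase, taken from the expression table of mouse osteoclasts (OCs) by their symbols. A row was kept where its symbol began with Nduf followed by a, b, c, s or v, with Uqcr, with Cox followed by a digit between 4 and 8, or with Atp5, or was Sdha, Sdhb, Sdhc or Sdhd. Mitochondrially encoded genes were to be kept as well, but 0 such rows were found, and those genes were not analysed here. Of 21492 rows, 100 had such symbols. Names marked as pseudogenes took out 10 of them, and 1 more (Ndufb4c, at most 0.873 CPM) stayed under 1 CPM in all 6 libraries, which left 89 members with 88 symbols. CPM is the deposited count of a gene as parts of 1000000, over the mean total of the 6 libraries. The weakest member kept was Cox6b2, with at most 1.29 CPM. Complex I gave 37 members, complex II 4, complex III 8, complex IV 14 and the ATP synthase (complex V) 18, and 8 were Ndufaf assembly factors, which fit the symbol pattern but are not subunits.

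OCs, the multinucleated cells that resorb bone, were grown from bone marrow of Dcir-/- mice and WT mice, all on the C57BL/6J background. Dcir (Clec4a2) encodes an inhibitory C-type lectin receptor, and the Dcir-/- mice lack it in every cell and not only in OCs. There were 3 Dcir-/- libraries (numbered 21, 22 and 83) and 3 WT libraries (numbered 3, 82 and 94), all from cultures given M-CSF at 20 ng/ml and RANKL at 100 ng/ml. The labels place the harvest on day 4 with 2 days of RANKL, whereas the study's methods for sequencing give 4 days with M-CSF and RANKL. The mice were young adults. The Dcir-/- line had been backcrossed, and WT mice were purchased and shared its housing before use. No source used here says whether each library came from a separate mouse, so the p-values reflect the spread among 6 libraries alone, and part of that spread may be technical. In these bulk samples, fewer cells of a type and less RNA per cell cannot be told apart.

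Complexes I to IV sit in the inner mitochondrial membrane and pass electrons from NADH and succinate to oxygen. Complexes I, III and IV use that energy to pump protons out of the matrix, and the ATP synthase makes ATP as protons flow back. Most of their subunits are encoded in the nucleus and are assembled with the few that mitochondrial DNA encodes. OCs are known as cells rich in mitochondria, and in mice their maturation goes along with mitochondrial biogenesis driven by the coactivator PGC-1beta (Ppargc1b).

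The promoters of these genes are known targets of the transcription factor NRF1 and of GABP, a factor of the ETS family, and a few are shown here as background. RefSeq windows on GRCm38.p6, from 250 bases before to 50 bases after each annotated start, were matched by symbol to 75 of the 89 members (74 symbols, 79 windows). The NRF1 core GCGCANGC on either strand stood in 26 of the 79 windows (32.9%), against 3270 of all 32851 windows (9.95%). For the ETS motif CCGGAAGT the numbers were 5 of 79 (6.33%), against 1277 of 32851 (3.89%). A match is a description of the letters and not evidence of binding. The windows of the members were not matched to the others for base content. Whether the motifs bear on the levels of the members was not tested. In each complex an abundant member with a match is printed 5′ to 3′ along its own strand, with matches in capitals. Ndufb10 lies at chr17:24724374-24724673 on the minus strand with 1 NRF1 match, Sdha at chr13:74350191-74350490 on the minus strand with 3, and Uqcrc1 at chr9:108936398-108936697 on the plus strand with 3, of which the last pair overlaps because the letters read on both strands. Cox8a lies at chr19:7217567-7217866 on the minus strand with 2 ETS matches, and Atp5c1 at chr2:10080383-10080682 on the minus strand with 1 NRF1 match.
Ndufb10: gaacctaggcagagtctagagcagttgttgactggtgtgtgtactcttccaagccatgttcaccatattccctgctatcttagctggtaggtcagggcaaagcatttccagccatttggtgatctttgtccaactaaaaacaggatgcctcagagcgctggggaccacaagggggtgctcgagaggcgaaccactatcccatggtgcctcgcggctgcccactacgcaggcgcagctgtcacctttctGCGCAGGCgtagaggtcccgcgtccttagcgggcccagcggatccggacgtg
Sdha: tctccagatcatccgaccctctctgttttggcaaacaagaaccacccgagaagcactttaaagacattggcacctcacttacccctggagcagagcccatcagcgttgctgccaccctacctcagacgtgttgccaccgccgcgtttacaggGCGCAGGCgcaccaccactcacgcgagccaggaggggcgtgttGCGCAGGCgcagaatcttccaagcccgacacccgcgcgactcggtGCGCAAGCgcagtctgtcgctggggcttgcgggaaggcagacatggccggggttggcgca
Uqcrc1: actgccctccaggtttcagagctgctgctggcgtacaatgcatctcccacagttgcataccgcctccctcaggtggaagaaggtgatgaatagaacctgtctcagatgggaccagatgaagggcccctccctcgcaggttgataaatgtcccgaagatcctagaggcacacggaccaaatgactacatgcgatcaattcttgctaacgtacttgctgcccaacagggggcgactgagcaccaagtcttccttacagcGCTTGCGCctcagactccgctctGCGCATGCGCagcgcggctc
Cox8a: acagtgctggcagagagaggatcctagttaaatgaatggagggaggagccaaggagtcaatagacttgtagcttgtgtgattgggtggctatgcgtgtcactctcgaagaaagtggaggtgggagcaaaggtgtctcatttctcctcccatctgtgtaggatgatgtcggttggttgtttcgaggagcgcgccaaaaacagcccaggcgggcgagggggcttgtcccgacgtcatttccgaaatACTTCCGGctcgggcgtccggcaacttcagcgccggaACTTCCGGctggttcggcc
Atp5c1: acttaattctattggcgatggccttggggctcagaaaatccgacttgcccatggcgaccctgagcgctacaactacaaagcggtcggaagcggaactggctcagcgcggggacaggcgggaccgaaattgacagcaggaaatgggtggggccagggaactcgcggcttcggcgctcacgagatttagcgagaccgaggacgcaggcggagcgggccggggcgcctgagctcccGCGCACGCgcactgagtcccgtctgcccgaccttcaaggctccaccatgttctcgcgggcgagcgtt

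The targeted gene was at 0.496 to 1.15 CPM in Dcir-/- OCs and at 239 to 289 CPM in WT OCs, so each library matched its label. Markers of OCs were high in all libraries: Ctsk was at 2990.4 to 3658 CPM in Dcir-/- OCs and 2875 to 3452 CPM in WT OCs, and Acp5 at 3792 to 4801 CPM in Dcir-/- OCs and 3750.5 to 4399 CPM in WT OCs. Of the 14 OC markers, 13 were higher in mean in Dcir-/- OCs and 5 higher in every Dcir-/- library (median log2 fold change 0.16), with 0 called and 4 at an unadjusted p under 0.05 by limma (Itgb3, Calcr, Oscar and Dcstamp). Markers of other cell types differed between the groups. The 12 macrophage markers summed to 4046 to 4357 CPM in Dcir-/- OCs and 4414 to 5959 CPM in WT OCs, and 3 of them (C1qa, C1qc and Marco) were called lower by limma. The 8 monocyte markers summed to 139.8 to 150.0 CPM in Dcir-/- OCs and 196 to 289 CPM in WT OCs, and the 10 neutrophil markers to 353 to 456 CPM in Dcir-/- OCs and 623 to 772 CPM in WT OCs with 4 called lower (S100a8, S100a9, Ltf and Ngp). Of the remaining markers, the erythroid ones measured (1 of 6) were at most 0.539 CPM in any library, the stromal ones (5 of 6) summed to at most 4.35 CPM and those of T and B cells (6 of 7) to at most 11.9 CPM.

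The members were compared between Dcir-/- and WT OCs. In Dcir-/- OCs none of the 89 members was called higher or lower, and their fold changes lay between -0.19 (Atp5e) and 0.17 (Ndufs8) on the log2 scale. Over all genes tested, limma at an adjusted p under 0.05 (Benjamini-Hochberg) called 62 of 14047 (0.441%), 21 higher and 41 lower. At an unadjusted p under 0.05 the count was 0 of 89 members, against 12.5% of all genes, and the smallest adjusted p of a member was 0.58. Likewise, in 0 of the 89 members were all Dcir-/- libraries on the same side of all WT libraries, against 19.8% of all genes. The median log2 fold change of the members was -0.01, beside 0.01 for all genes tested, with 36 members higher and 53 lower in mean in Dcir-/- OCs.

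A p that misses the threshold does not show equality, but each interval bounds what could have been missed for its own gene. The intervals do not hold jointly over the 89 members. They rest on a variance shared by both groups, although the WT libraries spread more. They were not set against 1.5-fold on leaving out a library. With the pseudocount of 1 CPM, every one of the 89 limma 95% intervals lay inside a change of 1.5-fold in either direction, the lowest bound being 0.702-fold (Ndufaf3) and the highest 1.44-fold (Cox6b2). This pseudocount narrows the intervals of the weakest members, and with one of 0.1 CPM those of Cox6b2 (0.765-fold to 1.96-fold) and Cox6a2 (0.593-fold to 1.36-fold) passed 1.5-fold, while 87 stayed inside. The median standard error of a member was 0.12 on the log2 scale, the same as that of all genes tested.

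**Figure D1:**
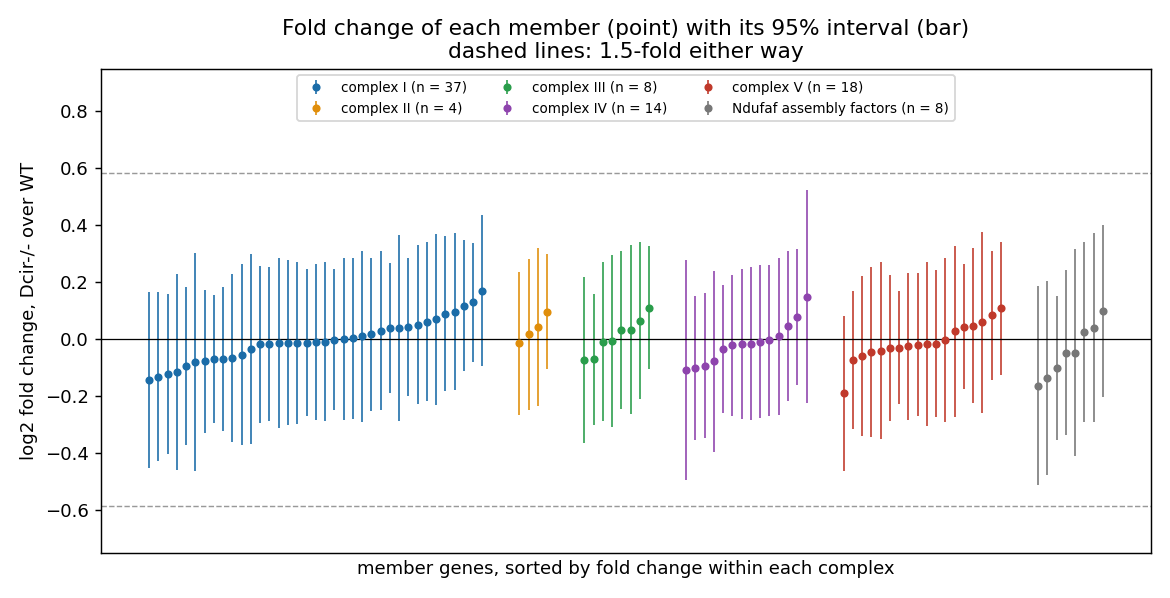
Log2 fold change of each of the 89 members, Dcir-/- over WT (points), with limma's 95% interval (bars), sorted within each complex; dashed lines mark 1.5-fold in either direction. With the pseudocount of 1 CPM used here each interval crosses 0 and none reaches a dashed line.

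By complex the medians also lay near 0. The median log2 fold change was -0.01 for complex I (16 of 37 members higher in mean), 0.03 for complex II (3 of 4), 0.01 for complex III (4 of 8), -0.02 for complex IV (4 of 14), -0.02 for the ATP synthase (6 of 18) and -0.05 for the Ndufaf assembly factors (3 of 8). In complexes I and III the core subunits, which form the catalytic or structural centre, had higher medians than the accessory ones. Both kinds carry the shared spread between libraries, so that spread does not measure this gap. Levels were the mean over members of log2(CPM + 1), less the mean of the 6 libraries. In both complexes the core level was above the other in every Dcir-/- library and below it in every WT library. The gap was narrow for complex III in library 83 (-0.010 against -0.015). The core subunits of complex I had a median of 0.04 (6 of 7 higher in mean) against -0.01 for its accessory subunits (10 of 30). In complex III the core proteins stood at 0.07 (3 of 3) against -0.01 for the small subunits (1 of 5), whereas the ATP synthase had no such order. There the F1 part, the catalytic head with its central stalk, stood at 0.04 (3 of 5) and the peripheral stalk at 0.03 (3 of 5). Atp5o is counted in the peripheral stalk by both of its rows, each of them higher in mean. The small membrane subunits stood at -0.03 (0 of 5) and the c ring, which belongs to the rotary core, at -0.04 (0 of 3). These differences are between genes measured in the same 6 libraries and were not tested. The core subunits were also the longer ones. Median exon lengths were 2178 against 1316 bases in complex I and 2552 against 876 bases in complex III. Whether the gap goes with role or with length was not tested.

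Complex I, which oxidises NADH, has Ndufs1 among its abundant members. Values per library are given throughout in the order 21, 22 and 83 for Dcir-/- OCs and 3, 82 and 94 for WT OCs. Ndufs1, the largest core subunit and a carrier of iron-sulphur clusters, had 332, 299 and 297 CPM in Dcir-/- OCs, against 256, 285 and 309 CPM in WT OCs. Here Dcir-/- library 21 was the highest of all and WT library 3 the lowest, while WT library 94 exceeded the other Dcir-/- libraries. Its log2 fold change was 0.13 with an interval from -0.08 to 0.34 (limma adjusted p = 0.628).

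Ndufs8, another iron-sulphur core subunit, had the smallest p of the complex. It stood at 117, 102 and 113 CPM in Dcir-/- OCs, against 84.1, 98.3 and 114 CPM in WT OCs. Only WT library 94 kept the groups from separating, and the log2 fold change was 0.17 with an interval from -0.09 to 0.44 (limma adjusted p = 0.612). Ndufa10, an accessory subunit of the membrane arm, showed 280.4, 255 and 244 CPM in Dcir-/- OCs, against 212, 240.4 and 268 CPM in WT OCs. The groups overlapped (log2 fold change 0.12, interval -0.11 to 0.35). Ndufa9, an accessory subunit at the junction of both arms, is the member that lies within 20 Mb of Clec4a2 on chromosome 6 (126821721 to 126849136 on mm10), and was therefore given in full. It had 215, 176 and 196 CPM in Dcir-/- OCs, against 156, 184 and 211 CPM in WT OCs, an overlap with a log2 fold change of 0.10 (interval -0.18 to 0.37). The 30 accessory subunits together ranged from -0.14 (Ndufc2) to 0.12 (Ndufa10) on the log2 scale.

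Complex II, the succinate dehydrogenase that is also an enzyme of the citric acid cycle, had 4 members. Sdha, the flavoprotein that oxidises succinate, had 1132, 1019 and 1059 CPM in Dcir-/- OCs, against 919, 1035 and 1047 CPM in WT OCs. Dcir-/- library 22 fell between the WT libraries, so the groups overlapped, with means of 1069.6 ± 57.2 and 1000.3 ± 70.3 CPM in Dcir-/- and WT OCs (SD, n = 3 each) and a log2 fold change of 0.10 (interval -0.10 to 0.30). Sdhb, its iron-sulphur partner, showed 355, 304 and 324 CPM in Dcir-/- OCs, against 269, 319 and 372 CPM in WT OCs. Sdhd, a membrane anchor that helps bind ubiquinone, showed 375, 352 and 364 CPM in Dcir-/- OCs, against 304, 360.1 and 423 CPM in WT OCs. For both genes the Dcir-/- values lay wholly inside the WT range. Sdhc, the other anchor, had a log2 fold change of -0.01.

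Complex III hands electrons from ubiquinol to cytochrome c. Uqcrc1, a core protein on the matrix side, had 623, 528 and 579.9 CPM in Dcir-/- OCs, against 465, 568 and 629 CPM in WT OCs. Its partner Uqcrc2 had 431, 386 and 386 CPM in Dcir-/- OCs, against 333, 375 and 408 CPM in WT OCs. Uqcrc1 in Dcir-/- OCs stayed inside the WT range, whereas Uqcrc2 in Dcir-/- library 21 exceeded every WT library (log2 fold change 0.11, interval -0.10 to 0.33). Uqcrh, the hinge protein that contacts cytochrome c1, had 180.4, 172 and 177 CPM in Dcir-/- OCs, against 164, 180.3 and 214 CPM in WT OCs. Uqcr11, a small subunit, had 138, 123 and 133 CPM in Dcir-/- OCs, against 117, 135 and 168 CPM in WT OCs. Both of these overlapped and had a log2 fold change of -0.07, and the Rieske iron-sulphur protein Uqcrfs1 stood at 0.03.

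**Figure D2:**
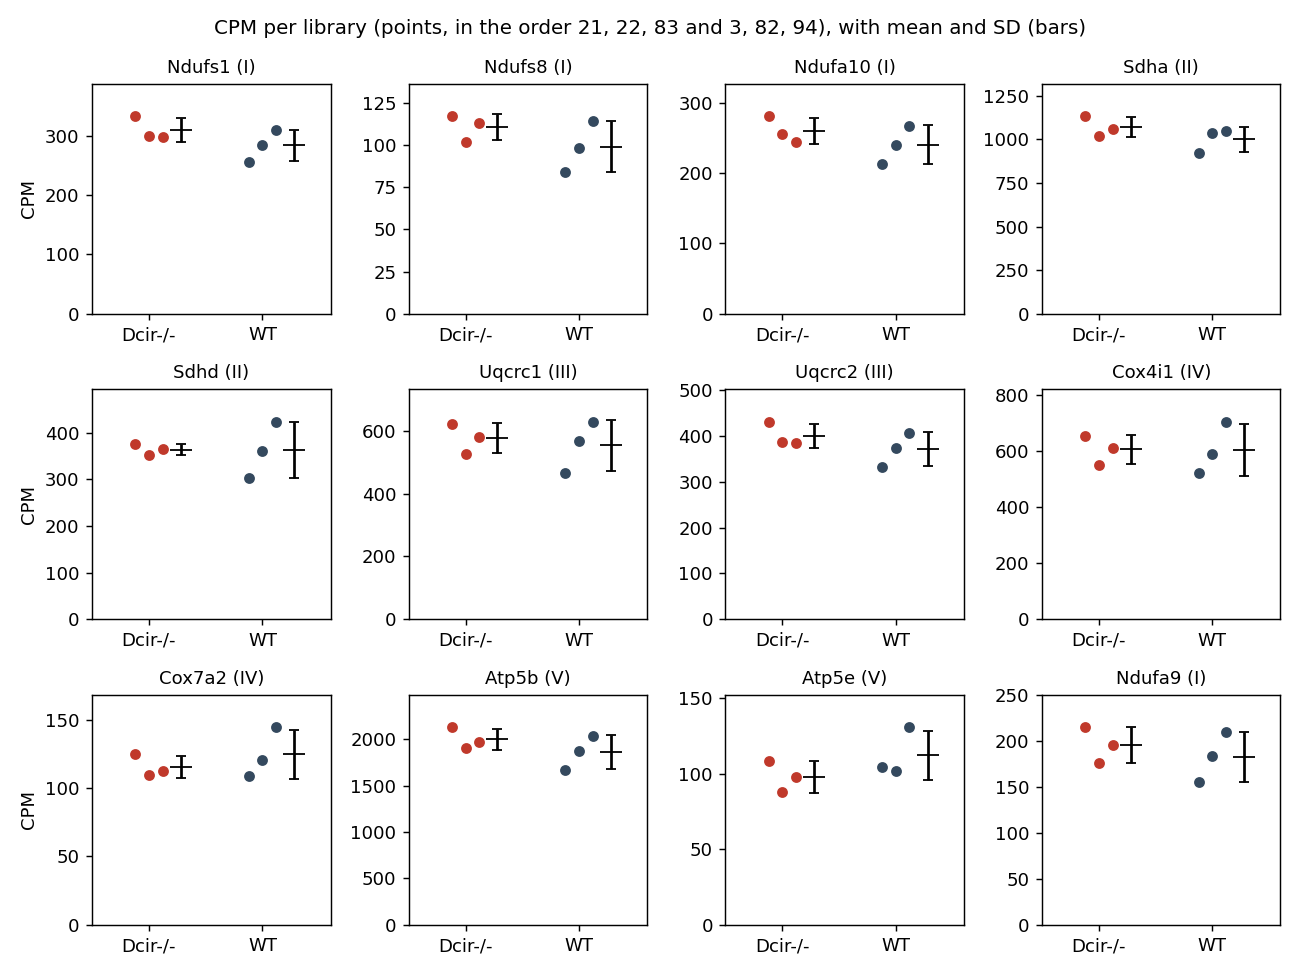
CPM of 12 members in each library (points, in the order 21, 22, 83 for Dcir-/- OCs on the left and 3, 82, 94 for WT OCs on the right), with the mean and SD of 3 libraries beside them; each axis starts at 0. The groups overlap in every panel, and in 11 of the 12 WT library 3 is the lowest of all 6, the exception being Atp5e.

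Complex IV, the cytochrome c oxidase, is where tissue isoforms could differ. Cox4i1, the general form of subunit 4, had 655, 551 and 612 CPM in Dcir-/- OCs, against 520.2, 589.7 and 704 CPM in WT OCs. Cox7a2l is described as a factor that joins complexes III and IV into supercomplexes, and its protein form in this strain was not examined. It had 347, 305 and 312 CPM in Dcir-/- OCs, against 307, 323 and 403 CPM in WT OCs. Neither separated the groups, with log2 fold changes of 0.01 and -0.09. Cox8a, a small subunit found in most tissues, had 308, 263 and 286 CPM in Dcir-/- OCs, against 263, 292 and 324 CPM in WT OCs, which overlapped as well (log2 fold change -0.03).

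For subunit 6a the general form Cox6a1 had 303, 250.04 and 274 CPM in Dcir-/- OCs, against 247, 267 and 326 CPM in WT OCs. The form of heart and skeletal muscle, Cox6a2, was at 1.54, 1.54 and 1.30 CPM in Dcir-/- OCs, against 1.14, 1.74 and 2.17 CPM in WT OCs. Per kilobase of exon, Cox6a2 made up 0.489% to 0.631% of the pair in Dcir-/- OCs and 0.476% to 0.682% in WT OCs, so the general form made up nearly all of the pair in both groups. For subunit 6b, the general form Cox6b1 had 231, 202 and 219 CPM in Dcir-/- OCs, against 188, 214 and 257 CPM in WT OCs. The testis form Cox6b2 was at 1.196, 1.23 and 1.04 CPM in Dcir-/- OCs, against 0.997, 0.6004 and 1.29 CPM in WT OCs. Its share of the pair per kilobase was 0.304% to 0.388% in Dcir-/- OCs and 0.179% to 0.338% in WT OCs, again with overlap.

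Subunit 7a was the case where a muscle form was best detected. Cox7a2, the general form, had 125, 109.5 and 113 CPM in Dcir-/- OCs, against 109, 121 and 144 CPM in WT OCs. Cox7a1, the muscle form, was at 5.48, 5.93 and 5.69 CPM in Dcir-/- OCs, against 5.95, 5.10 and 7.29 CPM in WT OCs. Per kilobase it made up 7.18% to 8.72% of both genes in Dcir-/- OCs and 6.93% to 8.78% in WT OCs, so the shares were alike to within the spread. Ndufa4 carries a complex I name and is now assigned to complex IV, but by its symbol it is among the 37 members of complex I in all counts here. It had 269, 231 and 242 CPM in Dcir-/- OCs, against 210.0, 243 and 285 CPM in WT OCs. Its log2 fold change was 0.02 (interval -0.25 to 0.28). Of the pairs that were to be compared, no rows were found for Cox4i2, Cox8b and Ndufa4l2, which were not analysed here.

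The ATP synthase held the most abundant members. Atp5b, the catalytic beta subunit, had 2128, 1905 and 1971 CPM in Dcir-/- OCs, against 1669, 1871 and 2038 CPM in WT OCs. Atp5a1, the alpha subunit of the same head, had 1799, 1619 and 1678 CPM in Dcir-/- OCs, against 1442, 1622 and 1756 CPM in WT OCs. In both genes Dcir-/- library 21 was the highest and WT library 3 the lowest, with log2 fold changes of 0.11 (interval -0.12 to 0.34) and 0.08 (interval -0.14 to 0.31). Atp5e, the small epsilon subunit of the central stalk, had the smallest p of all 89 members. It stood at 108, 87.5 and 97.5 CPM in Dcir-/- OCs, against 104, 101 and 130.5 CPM in WT OCs. Dcir-/- library 21 lay above WT libraries 3 and 82, and the log2 fold change was -0.19 with an interval from -0.46 to 0.08 (limma adjusted p = 0.58).

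Atp5g1, Atp5g2 and Atp5g3 encode the same mature protein of the rotating c ring. Atp5g3 had 424, 361 and 398 CPM in Dcir-/- OCs, against 353, 401 and 488 CPM in WT OCs. Atp5g1 had 204, 171 and 173 CPM in Dcir-/- OCs, against 159, 181 and 229 CPM in WT OCs, and Atp5g2 had 193, 165 and 174 CPM in Dcir-/- OCs, against 158, 176 and 208 CPM in WT OCs. In all 3 genes the Dcir-/- values lay inside the WT range. Per kilobase Atp5g3 made up 55.3% to 56.7% of the 3 genes in Dcir-/- OCs and 56.1% to 56.7% in WT OCs, Atp5g2 32.3% to 33% in Dcir-/- OCs and 31.4% to 32.8% in WT OCs, and Atp5g1 10.9% to 11.8% in Dcir-/- OCs and 11.2% to 11.8% in WT OCs. Atp5o, a stalk subunit, has a pair of rows whose gene models on chromosome 16 share 243 exon bases on the same strand. These are 12.3% of the exon length of the longer model and 45.85% of that of the shorter, whose other 54.15% is shared with Donson on the same strand, so reads of the shorter row in particular may belong to other genes. The log2 fold change was 0.03 for the longer and 0.06 for the shorter.

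Levels can be compared between genes only per length. Per kilobase of merged GENCODE M21 exons, the median member was at 72.5 CPM in complex I, 198 in complex II, 152 in complex III, 137 in complex IV, 112 in the ATP synthase and 9.14 among the Ndufaf assembly factors. The highest were Atp5a1 (527 CPM per kilobase), Cox8a (467) and Atp5b (456), and the lowest subunits were Cox6b2 (0.957), Cox6a2 (2.31) and Ndufb2 (6.65). Merged exons include rarely used transcript ends, so genes with long annotated forms such as Ndufab1 or Ndufb2 read low on this scale.

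The spread was larger inside the WT group than between the groups, and the members shared it. WT library 94 was the highest of the 6 libraries in 78 of the 89 members and WT library 3 the lowest in 79, while over all genes tested these shares were 28.8% and 31.2%. Dcir-/- library 21 was the highest in 10 members and Dcir-/- library 22 in 1. In 70 members (78.7%) all 3 Dcir-/- libraries lay between WT library 3 and WT library 94, which held for 15.6% of all genes tested. The ratio of WT library 94 to WT library 3 was above 1 in all 89 members, with a median of 1.37 and a range from 1.13 to 1.90. Dcir-/- library 21 exceeded Dcir-/- library 22 in 83 members, with a median ratio of 1.12.

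Summed over all members, the RNA of this machinery came to 20445, 18123 and 18886 CPM in Dcir-/- OCs, against 16371, 18634 and 21569 CPM in WT OCs. Dcir-/- values fell inside the WT range again. The SD was larger among the WT than among the Dcir-/- libraries in 88 of 89 members, as it was in 73.3% of all genes tested, and the median coefficient of variation was 6.46% in Dcir-/- OCs and 16.1% in WT OCs. On the first principal component of the members stood 84.6% of their variance over the 6 libraries, beside 53.5% for all genes tested. The median Pearson correlation between members over the 6 libraries was 0.89, as a description of genes measured in shared libraries.

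Each complex followed the same course. The level was taken as the mean over its members of log2(CPM + 1) less the mean of the 6 libraries. For complex I it was 0.09, -0.07 and -0.02 in Dcir-/- OCs, against -0.22, -0.02 and 0.25 in WT OCs. For complex II it was 0.11, -0.06 and 0.00 in Dcir-/- OCs, against -0.21, -0.01 and 0.17 in WT OCs. In both, WT library 94 was highest and WT library 3 lowest, and Dcir-/- library 21 led its group. Complex III stood at 0.11, -0.08 and -0.01 in Dcir-/- OCs, against -0.22, -0.02 and 0.22 in WT OCs. Complex IV stood at 0.08, -0.07 and -0.03 in Dcir-/- OCs, against -0.16, -0.05 and 0.23 in WT OCs. The ATP synthase stood at 0.09, -0.08 and -0.02 in Dcir-/- OCs, against -0.19, -0.03 and 0.23 in WT OCs, so the order of the 6 libraries at both ends was the same in all 5 complexes. The range inside the Dcir-/- group was 0.15 to 0.19 over the 5 complexes, and that inside the WT group 0.38 to 0.47. The assembly factors differed in the Dcir-/- group, where library 22 (0.03) was above libraries 21 (0.01) and 83 (-0.10).

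**Figure D3:**
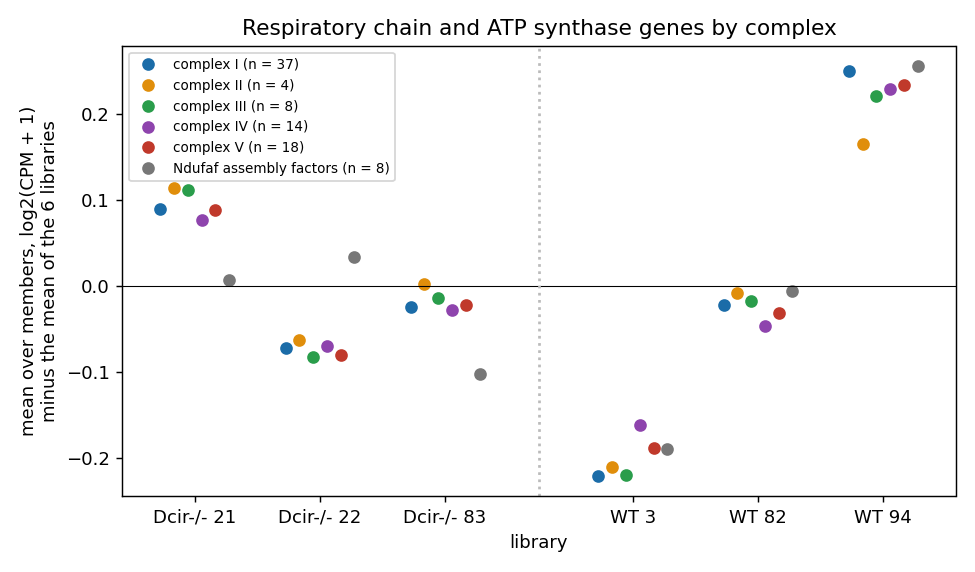
Mean level of each complex in each library, as log2(CPM + 1) less the mean of the 6 libraries (y axis), with Dcir-/- libraries on the left and WT libraries on the right; colours mark the complex. WT library 3 sits between -0.22 and -0.16 and WT library 94 between 0.17 and 0.26, with every Dcir-/- point between them.

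The sign of the median, which lay near 0, turned on leaving out WT library 94, Dcir-/- library 22 (0.03, 60 of 89 higher in mean) or Dcir-/- library 83 (0.002), and the median moved most on leaving out either WT library at the ends. Without WT library 3 the median log2 fold change of the members was -0.11 (81 of 89 lower in mean), and 7 of 89 members, against 15.3% of all genes, lay lower in every Dcir-/- library. Without WT library 94 it was 0.11 (85 of 89 higher in mean), and 15 members lay higher in every Dcir-/- library, against 19.3% of all genes. These 15 included Ndufs1, Ndufs8, Ndufa10, Uqcrc2 and Atp5b. In both cases limma called 0 members at an adjusted p under 0.05, with 3 of 89 members at an unadjusted p under 0.05 in each, against 14.4% of all genes without WT library 3 and 17.5% without WT library 94, and a smallest adjusted p of 0.298 without WT library 3 and 0.189 without WT library 94 (0.189 to 0.826 over all alternatives).

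Exon length moved with the differences. Across the 89 members the log2 fold change increased with log2 merged exon length (Pearson r = 0.32, Spearman rho = 0.33, a description over genes that share libraries), and over 14025 tested genes with a length the values were 0.07 and 0.15. The level in WT library 94 less that in Dcir-/- library 21 fell with length, with r = -0.40 over the members and -0.17 over all genes. As this subtraction is WT less Dcir-/-, the direction is the same, with longer genes relatively higher in the Dcir-/- library. A trend with length was also present inside the WT group. For WT library 94 less WT library 3, r was -0.28 over the members and -0.19 over all genes. For Dcir-/- library 21 less Dcir-/- library 22 it was -0.02 and -0.06. Among the 44 members shorter than 1675 bases, 13 were higher in mean in Dcir-/- OCs, and among the 45 others 23 were. When each library was centred within 10 bins of exon length, an alternative chosen after seeing the data, the median of the members became 0.01 and 3 of them (Ndufs8, Uqcrc2 and Cox5b) lay higher in every Dcir-/- library, against 9.23% of all genes, with 0 called by limma. The part of length, or of RNA quality, in the pattern was not tested.

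**Figure D4:**
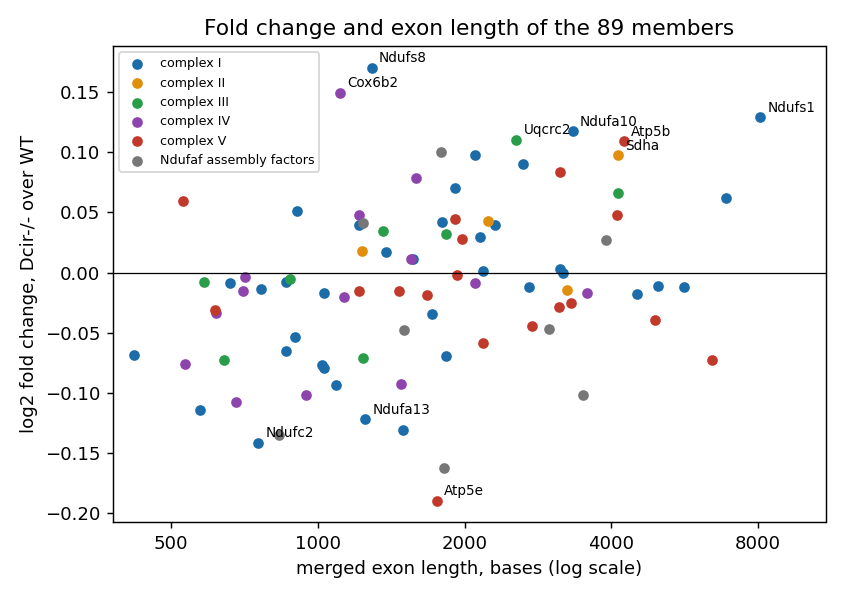
Log2 fold change of the 89 members, Dcir-/- over WT (y axis), against merged exon length in bases (x axis, log scale); colours mark the complex and 10 members are named. The points scatter widely at every length: of the long members Ndufs1 (0.13) and Sdha (0.10) lie above 0 and Atp5l (-0.07) below, of the short ones Ndufc2 (-0.14) lies below and Ndufb11 (0.05) above, and Atp5e is lowest at -0.19.

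Neighbouring mitochondrial pathways were set beside the members. The 46 assembly factors tested that are not named Ndufaf had a median log2 fold change of 0.01 with 0 called, and the 7 carriers of ADP, phosphate and protons 0.04 with 0 called. In mitochondrial ribosomal proteins, which translate the subunits of mitochondrial DNA, the median over 78 genes was -0.01 with 0 called. Their level was 0.03, -0.01 and -0.04 in Dcir-/- OCs, against -0.21, -0.02 and 0.24 in WT OCs, and WT library 94 was highest in 74 of 78. Thus they showed the same ends as the respiratory chain. At an unadjusted p under 0.05 the counts were 1 of the 46 assembly factors (Sdhaf4, log2 fold change -0.35), 0 of the 7 carriers and 0 of the 78 ribosomal proteins.

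All 19 genes of the citric acid cycle, which feeds NADH and succinate to the chain, were higher in mean in Dcir-/- OCs (median log2 fold change 0.12, 0 called by limma). Citrate synthase (Cs), the enzyme of its entry step, had the smallest p, with 848, 714 and 728 CPM in Dcir-/- OCs, against 600.5, 672 and 677 CPM in WT OCs. Every Dcir-/- library was above every WT library for this gene, yet the limma adjusted p was 0.374 (log2 fold change 0.23), and it was the single gene of the list at an unadjusted p under 0.05. The means of all 19 stayed higher under each other scaling, but the direction rested on WT library 3, and without it 10 of 19 were higher in mean and the median was 0.01. Of 20 genes of mitochondrial biogenesis and DNA, 0 were called (median 0.01, 1 at an unadjusted p under 0.05), and that gene was Ppargc1b, with 112, 89.5 and 105 CPM in Dcir-/- OCs against 83.0, 91.8 and 70.7 CPM in WT OCs. WT library 82 was above Dcir-/- library 22, so its groups overlapped (log2 fold change 0.32, limma adjusted p = 0.324). Tfam, which packs mitochondrial DNA, had 35.7, 36.1 and 33.6 CPM in Dcir-/- OCs, against 30.7, 35.0 and 39.4 CPM in WT OCs, and Esrra, a partner of PGC-1beta, had a log2 fold change of 0.01.

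Among 24 electron carriers and partner proteins tested, 1 gene was called. Hccs, which attaches heme to cytochrome c and cytochrome c1, had 161, 152 and 137 CPM in Dcir-/- OCs, against 67.4, 65.5 and 75.9 CPM in WT OCs. The groups lay far apart, and Hccs rose by 1.10 on the log2 scale (SE 0.09, limma adjusted p = 0.00223). Without Dcir-/- library 22 the adjusted p was 0.0528 with a log2 fold change of 1.09 (SE 0.11), and it stayed under 0.05 on leaving out each other library (range over the alternatives 0.00066 to 0.0528). Hccs lies on the X chromosome (169250193 to 169320372, minus strand, mm10), and 25.9% of its exon length is shared with Arhgap6 on the opposite strand. Of its substrates, Cycs, cytochrome c, had 222, 197 and 191 CPM in Dcir-/- OCs, against 179, 189 and 242 CPM in WT OCs, and Cyc1, cytochrome c1, had 439.9, 398 and 428 CPM in Dcir-/- OCs, against 326, 408 and 464 CPM in WT OCs. Both overlapped, with log2 fold changes of 0.01 and 0.09 (limma adjusted p = 0.99 and 0.821).

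Over all 6 libraries, marker lists of other cells did not follow the order that the members had, but within the groups some did. The level of the 12 macrophage markers was -0.67, -0.33 and -0.24 in Dcir-/- OCs, against 0.84, 0.29 and 0.11 in WT OCs, so WT library 3 had the highest macrophage and the lowest respiratory chain level, but WT library 94 stood between WT library 82 and the Dcir-/- libraries. The 8 monocyte markers stood at -0.42, -0.23 and -0.22 in Dcir-/- OCs, against 0.53, 0.37 and -0.04 in WT OCs, and the 9 neutrophil markers tested at -0.26, -0.48 and -0.47 in Dcir-/- OCs, against 0.52, 0.24 and 0.45 in WT OCs. WT library 3 was thus the highest for these lists too, while WT library 94 was the lowest WT library for the monocyte and not for the neutrophil markers. The level of the 14 OC markers was 0.29, -0.06 and 0.03 in Dcir-/- OCs, against -0.15, -0.09 and -0.03 in WT OCs, with Dcir-/- library 21 highest. Over all 6 libraries, WT library 94, the highest for the members, was not at the end of any of these 4 marker lists. Within each group, however, the OC markers had the members' order (from the highest, 21, 83 and 22, and 94, 82 and 3). Among WT libraries the macrophage and monocyte markers had the reverse order, and the neutrophil markers had neither. Among Dcir-/- libraries the neutrophil markers had the members' order. There the macrophage and monocyte markers were lowest in library 21, without a full reversal. The part of cell makeup in the levels of the members was not tested.

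**Figure D5:**
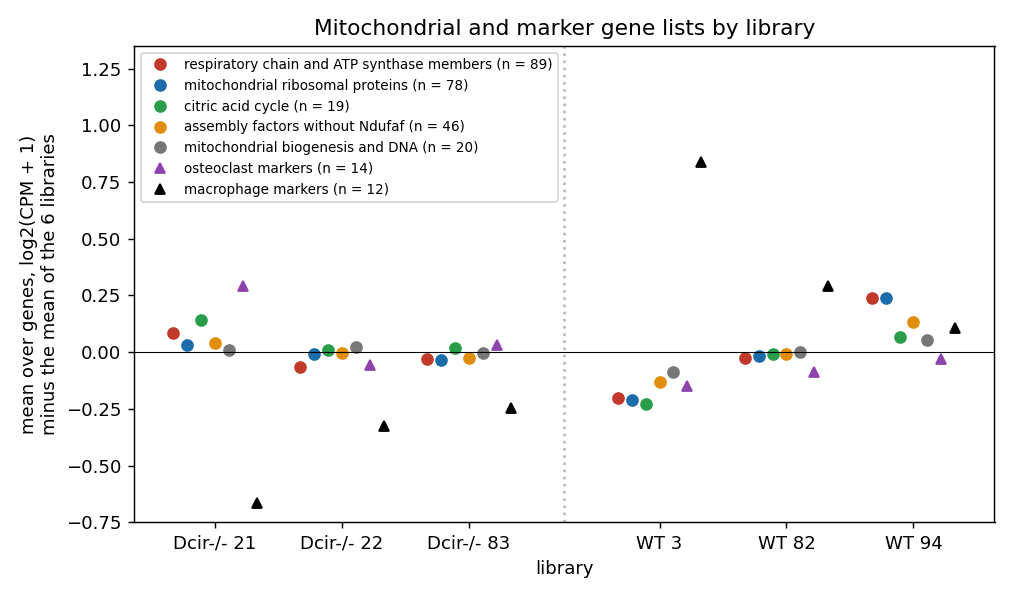
Mean level of mitochondrial lists (circles) and of OC and macrophage markers (triangles) in each library, as log2(CPM + 1) less the mean of the 6 libraries (y axis), with Dcir-/- libraries on the left and WT libraries on the right. Respiratory chain and mitochondrial ribosomal genes nearly coincide in WT libraries 3 (-0.20 and -0.21) and 94 (0.24 each), while macrophage markers span -0.67 to 0.84.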

How the data were processed

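Poly-A RNA of OCs was sequenced in 3 Dcir-/- and 3 WT libraries from a stranded kit. Per the labels and methods, the authors used Trim Galore 0.6.6 for trimming, HISAT2 2.2.0 for alignment to mm10, Rsubread for exon counts and edgeR to normalise them. The deposited sample values are a signal: counts that were scaled by the authors to the same library size, at least 95.8% of them not whole (tolerance 1e-06), with column totals of 33035000 to 34068300. How strand was treated in counting, and the annotation, are not stated in these sources. Columns of a log2 fold change (WT over Dcir-/-) and an adjusted p-value, also deposited, were not used.

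CPM is the deposited value over the mean of the column totals. Genes of at least 1 CPM in 3 libraries were tested two-sided with limma 3.58.1 (trend, R 4.3.3) on log2(CPM + 1), genotype being the only term. Fold changes on this scale understate changes of low genes. All 89 members passed this filter. The limma step was tested on simulated data. Positions and lengths came from GENCODE M21, matched to 21449 of 21492 identifiers. Exons of 33 members share bases with another gene of the table (29 with one on the opposite strand), among them Ndufs1, Uqcrc2 and Cox4i1, and their reads may be mixed. Genes given per library were, by complex, the 2 of highest CPM and the 3 of smallest p, tissue isoforms, members that pass limma, and members within 20 Mb of Clec4a2, except for a result that is not reported here. Members and lists were chosen with earlier results of these data known. Alternatives were other pseudocounts, filters, scalings and limma options, and leaving out each library.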

Additional observations from a re-analysis of the deposited data

How the results depend on the processing

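Under all 17 alternative fits, and at an adjusted p under 0.1, limma called 0 members, with a smallest adjusted p of 0.189. The count over all genes (62) became 30 with at least 1 CPM in all 6 libraries, 39 with array weights and 112 at an adjusted p under 0.1, and 2 to 126 on leaving out a library (8, 2 and 6 without Dcir-/- library 21, 22 and 83; 126, 9 and 79 without WT library 3, 82 and 94). Members whose groups do not overlap numbered 3 with exon length bins centred and 0 to 15 on leaving out a library. Medians of the members and of each complex moved by less than the spread between libraries in every alternative, although the sign of the members' median (-0.011) turned without WT library 94 (0.114), Dcir-/- library 22 (0.029) or Dcir-/- library 83 (0.002) and with exon length bins centred (0.007), and it was -0.109 without WT library 3. Of 475 values of the 28 named members under alternatives, 35 had the other sign, 31 of them on leaving out a library. Quantile normalization and exon length bins were chosen after seeing the data. The alternatives on mitochondrially encoded genes were not run because no such rows were found. No paired analysis was possible because the groups share no library number. Depth cannot be judged from adjusted values, and the spread between libraries sets the width of the intervals.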

Other observations

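Among the names left out as pseudogenes, Ndufb1-ps was well expressed. It had 66.5, 62.1 and 64.4 CPM in Dcir-/- OCs, against 57.7, 66.6 and 75.8 CPM in WT OCs, so WT libraries 3 and 94 were again the lowest and the highest. GENCODE annotates this identifier as a non-coding RNA from a bidirectional promoter. The other 9 names marked as pseudogenes reached at most 4.82 CPM (Atp5l2-ps, in WT library 94).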
